A study of Mus musculus with 24 samples.

Results

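Immediate early genes are the first genes that a cell transcribes after a stimulus, and 10 of them were followed here in mouse quadriceps femoris muscle: Fos, Fosb, Jun, Junb, Egr1, Egr2, Ier2, Ier3, Atf3 and Myc. They were picked by their symbols out of the 18669 genes counted, with earlier results of these data known. At the 4 h sampling time, 1 member passed the test in 1 of 18 comparisons (Jun, higher after HSP990 in wild type mice). The levels of Fos, Fosb, Egr1 and Atf3 differed several-fold between the 2 mice of many groups, and both values are therefore given throughout. Junb was listed at 0 in all 24 libraries and could not be followed. The other 9 genes had at least 2 counts in at least 10 libraries, the filter that kept 13754 genes in all.

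The RNA came from 24 mice on a CBA x C57BL/6 F1 background, of 3 genotypes with 4 treatments and 2 mice in each of the 12 groups. R6/2 mice carry a transgene for the N-terminal fragment of human huntingtin with an expanded CAG repeat and model Huntington's disease, and Hsf1 knockout (Hsf1-/-) mice lack HSF1, the main transcription factor of the heat shock response. For HS, mice under isoflurane anaesthesia lay on a heating pad that brought the core to 41.5 °C for 15 min, and control mice had the same anaesthesia and pad with the core at 36.9 °C for 21 min. HSP990, which inhibits the chaperone HSP90, was given by mouth at 12 mg/kg and was compared with gavage of vehicle. Muscle was taken 4 h after treatment. Wild type and R6/2 mice were 12 weeks old, whereas Hsf1 knockout mice were 10 weeks old in the control and HS groups and 8 weeks old in the vehicle and HSP990 groups, so age and genotype cannot be told apart there. Every mouse was either anaesthetised or gavaged, and no group without handling was analysed here.

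Transcription of immediate early genes needs no new protein. Factors that are already present, such as SRF with its ternary complex partners and CREB, are switched on by kinases of the MAPK and calcium pathways, and the transcripts last minutes to hours because they are unstable. FOS and FOSB pair with JUN or JUNB to form AP-1, ATF3 belongs to the same family of leucine zipper proteins, MYC is a helix-loop-helix factor and EGR1 and EGR2 are zinc finger factors. In skeletal muscle these genes are known for their response to contraction, stretch, injury and stress, and they also answer to handling.

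The libraries held 22450177 to 46599238 counts. Levels below are CPM, counts per 1000000 of the library total after TMM scaling, and the values of the 2 mice of a group are always given as replicate 1 and then replicate 2. Fold changes were fitted with edgeR to all 13754 genes at once, as 12 groups (12 residual degrees of freedom). A gene was called when its p, adjusted by the Benjamini-Hochberg method over all genes, was below 0.05. With 2 mice against 2 an exact permutation test cannot give a p below 0.333, so every test rests on the spread pooled over the 12 groups. Hsf1 itself was at 52.9 to 68.6 CPM in wild type libraries, 45.3 to 53.7 in R6/2 libraries and 21.1 to 29.0 in Hsf1 knockout libraries, without overlap between the knockout and the other libraries, and reads on the gene remained in the knockout. The 10 skeletal muscle markers, among them Acta1 and Ckm, were present in all libraries and summed to 222000 to 312600 CPM in wild type and Hsf1 knockout mice and to 60150 to 111800 CPM in R6/2 mice.

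The sequence just before the start of transcription is shown for Fos, Fosb and Atf3, which were among the members that varied most between mice, and for Jun, the member that passed a test. Each is the 250 bases before the start site in RefSeq on GRCm38.p6, written 5′ to 3′ on the gene's own strand. Capitals mark TGACG, the core of the cyclic AMP response element that CREB and ATF proteins bind (in reverse as CGTCA) and GCGNGGGCG, a binding motif of EGR proteins.
Fos (chr12:85473640-85473889, plus strand): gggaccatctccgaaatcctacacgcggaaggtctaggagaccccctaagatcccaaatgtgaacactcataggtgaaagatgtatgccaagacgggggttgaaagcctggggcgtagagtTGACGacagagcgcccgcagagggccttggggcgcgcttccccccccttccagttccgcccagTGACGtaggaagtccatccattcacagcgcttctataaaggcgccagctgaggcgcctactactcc
Fosb (chr7:19310046-19310295, minus strand): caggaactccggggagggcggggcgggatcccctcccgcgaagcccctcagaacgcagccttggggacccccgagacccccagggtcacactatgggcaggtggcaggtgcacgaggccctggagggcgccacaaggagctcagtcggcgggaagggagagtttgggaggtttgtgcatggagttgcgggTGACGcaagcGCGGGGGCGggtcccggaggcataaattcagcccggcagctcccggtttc
Atf3 (chr1:191183334-191183583, minus strand): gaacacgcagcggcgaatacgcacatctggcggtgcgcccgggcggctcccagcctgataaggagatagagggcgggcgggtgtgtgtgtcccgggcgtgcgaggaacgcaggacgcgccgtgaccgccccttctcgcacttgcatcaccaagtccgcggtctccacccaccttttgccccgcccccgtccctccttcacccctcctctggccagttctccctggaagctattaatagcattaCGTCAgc
Jun (chr4:95052223-95052472, minus strand): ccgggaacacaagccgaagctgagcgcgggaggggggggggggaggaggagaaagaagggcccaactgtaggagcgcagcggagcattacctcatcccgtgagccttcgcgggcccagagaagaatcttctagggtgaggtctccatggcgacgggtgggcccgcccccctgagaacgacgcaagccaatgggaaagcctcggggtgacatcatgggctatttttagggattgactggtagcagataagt
Counted from the start site, TGACG stood at position -129 and -66 in Fos, -60 in Fosb and, in reverse, -7 in Atf3, and the EGR motif at -50 in Fosb. The Jun sequence holds neither. Promoter windows of 300 bases (50 of them after the start site) were matched for 7 of the 10 members, and Egr1, Ier2 and Myc had none. On either strand, TGACG lay in the windows of 5 of the 7 members and in 20.8% of all 32851 windows, and the CArG box that SRF binds (CC, then 6 letters A or T, then GG) in those of 1 member, Egr2, and in 1.63% of all windows. CCAAT was found for 5 members (37.4% of all windows), TATAAA for 2 (13.6%) and GCGNGGGCG for 1 (5.55%). The full element TGACGTCA (1.79% of all windows), the AP-1 site TGANTCA (7.81%) and the heat shock element (0.603%), searched as 3 alternating GAA and TTC blocks with 2 bases between blocks, were in none of the members' windows. TGACG is part of TGACGTCA, so matches of the 2 motifs are not separate. Sequence outside the windows was not searched, so a motif missing from a window may still lie elsewhere near the gene. Egr2 has several start sites in the table, and its windows overlap.

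Fos (gene identifier 14281, chromosome 12 of mm9, 86814840 to 86818223) encodes the AP-1 subunit that is the classical marker of recent stimulation. In wild type mice it was at 3.37 and 41.2 CPM in the control mice, 6.04 and 10.4 after HS, 11.8 and 8.92 with vehicle and 32.0 and 115 after HSP990. Fos in R6/2 mice was at 6.45 and 16.1 CPM in the control mice, 21.7 and 15.3 after HS, 12.7 and 4.43 with vehicle and 27.1 and 34.2 after HSP990. Its level in Hsf1 knockout mice was 9.63 and 6.80 CPM in the control mice, 94.8 and 8.14 after HS, 25.5 and 2.91 with vehicle and 17.2 and 34.2 after HSP990. The 2 mice thus lay 12.2-fold apart in the wild type control group, 11.6-fold in the Hsf1 knockout HS group and 8.77-fold in the Hsf1 knockout vehicle group. By group mean, Fos was lowest in wild type HS mice at 8.2 ± 3.05 CPM and highest in wild type HSP990 mice at 73.5 ± 58.7 CPM (SD of 2 mice), and the lowest and the highest single library lay 39.6-fold apart.

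After HSP990 both wild type mice and both R6/2 mice had more Fos than either vehicle mouse of their genotype, whereas the Hsf1 knockout groups overlapped. The fitted change was 2.83 (SE 1.13, edgeR adjusted p = 0.27) in wild type mice and 1.83 (SE 1.09, edgeR adjusted p = 0.68) in R6/2 mice, on the log2 scale, and neither was called. Without HSP990 replicate 2 the wild type value was 1.63, and without vehicle replicate 1 the R6/2 value was 2.79. After HS in wild type mice the fitted value was -1.45 (SE 1.10, edgeR adjusted p = 0.7), but it rested on replicate 2 of the control group at 41.2 CPM, without which it was 1.28. The HS value of 2.64 (SE 1.14, edgeR adjusted p = 0.5) in Hsf1 knockout mice rested on replicate 1 at 94.8 CPM and was -0.017 without that mouse.

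**Figure D1:**
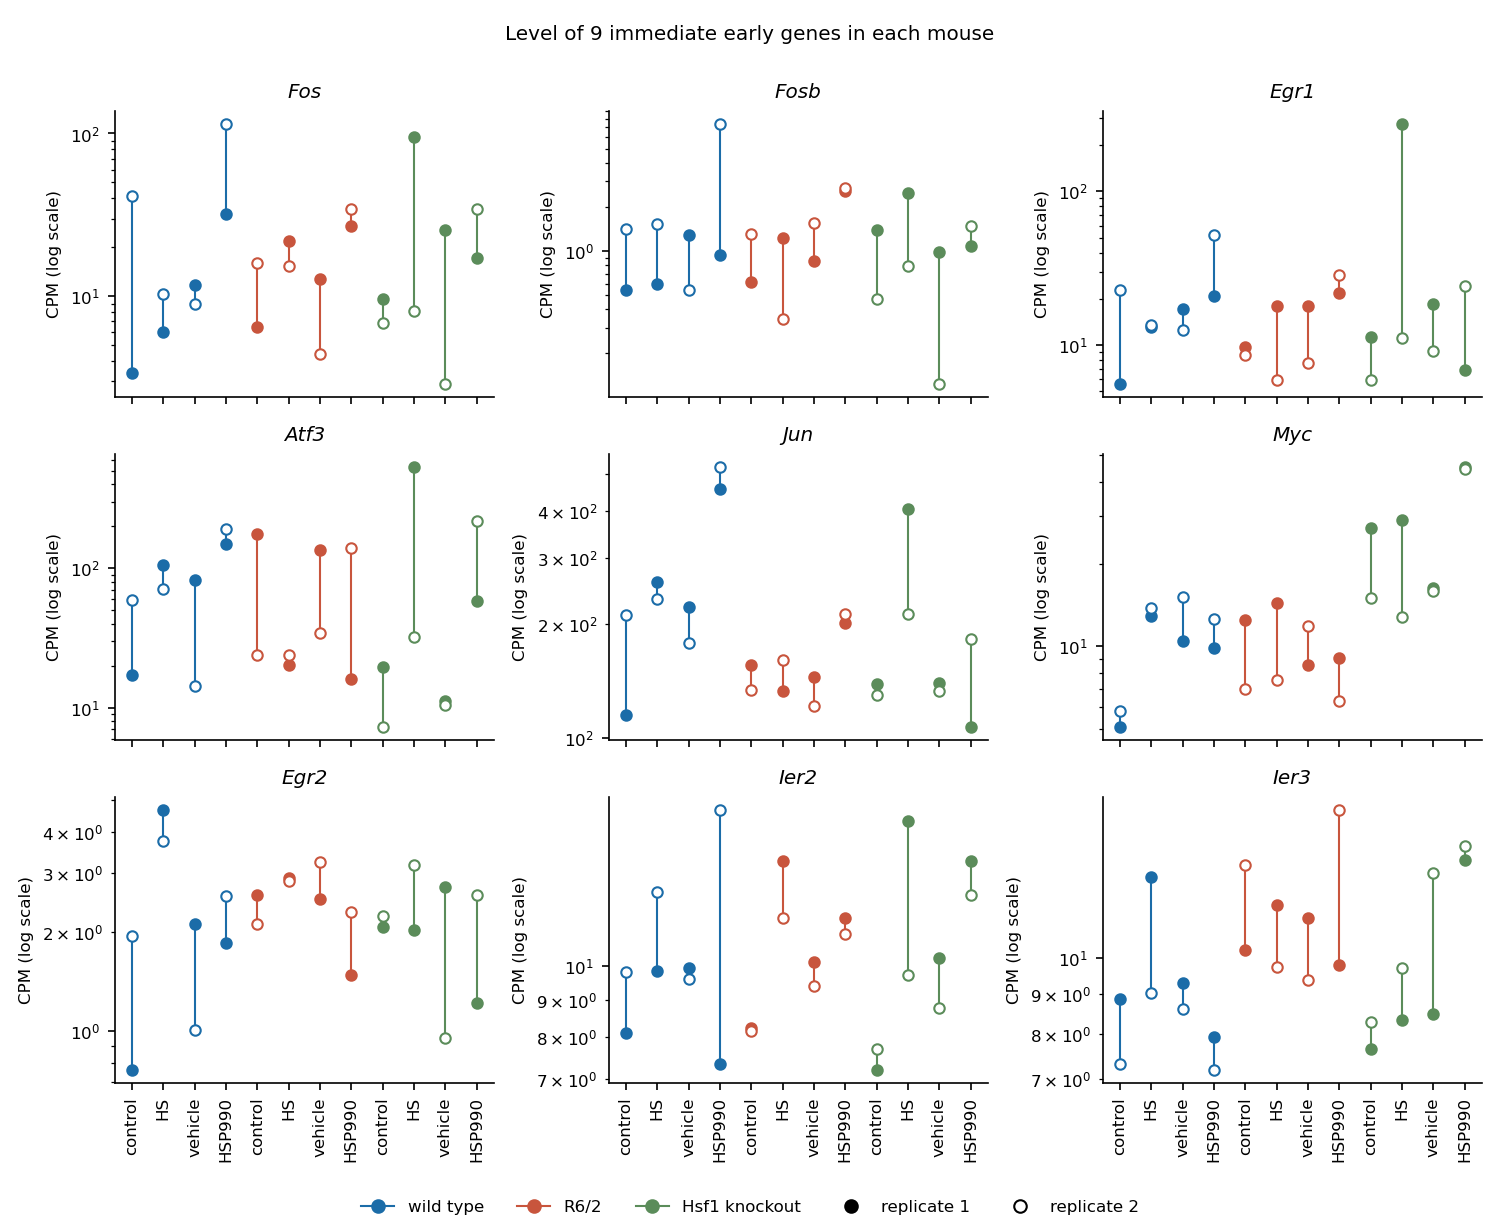
Level of the 9 measured immediate early genes in each of the 24 mice, as CPM after TMM scaling on a log axis, by group; filled circles are replicate 1, open circles replicate 2, and a line joins the 2 mice of a group. Fos, Egr1 and Atf3 span long lines in several groups, with replicate 1 of the Hsf1 knockout HS group at 94.8, 276 and 533 CPM. Each panel has its own axis, so line lengths cannot be compared between genes. For Jun the 2 mice of a group were at most 1.89-fold apart.

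Fosb (gene identifier 14282, chromosome 7 of mm9, 19888070 to 19895394), a relative of Fos in AP-1, was the lowest of the measured members, with 0.124 to 7.44 CPM over all libraries. Wild type mice had 0.54 and 1.42 CPM in the control mice, 0.597 and 1.54 after HS, 1.28 and 0.543 with vehicle and 0.948 and 7.44 after HSP990. R6/2 mice had 0.617 and 1.32 CPM in the control mice, 1.24 and 0.345 after HS, 0.856 and 1.55 with vehicle and 2.58 and 2.71 after HSP990, and Hsf1 knockout mice had 1.39 and 0.473 CPM in the control mice, 2.49 and 0.795 after HS, 0.989 and 0.124 with vehicle and 1.08 and 1.49 after HSP990. Both R6/2 mice given HSP990 lay above both vehicle mice, while 1 of the 2 wild type mice given HSP990 carried the highest level of all and the other stood within the range of the vehicle group. The fitted change after HSP990 in wild type mice was 2.22 (SE 0.95, edgeR adjusted p = 0.32), was not called and rested on HSP990 replicate 2, without which it was 0.059. By group mean, Fosb was lowest in Hsf1 knockout vehicle mice at 0.557 ± 0.611 CPM and highest in wild type HSP990 mice at 4.19 ± 4.59 CPM (SD of 2 mice).

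Jun (gene identifier 16476, chromosome 4 of mm9, 94715725 to 94718913) encodes the AP-1 subunit that pairs with FOS and, unlike FOS, also with itself. It was the member with the most transcript per length, with a median of 53.2 CPM per kb of its longest coding transcript, ahead of Atf3 at 23.3 and Fos at 6.65 CPM per kb. Wild type mice had 115 and 212 CPM in the control mice, 259 and 233 after HS, 222 and 179 with vehicle and 455 and 523 after HSP990. R6/2 mice had 156 and 134 CPM in the control mice, 133 and 161 after HS, 145 and 121 with vehicle and 202 and 212 after HSP990, and Hsf1 knockout mice had 139 and 129.6 CPM in the control mice, 403 and 213 after HS, 139.9 and 133 with vehicle and 107 and 183 after HSP990. By group mean, Jun was lowest in R6/2 vehicle mice at 133 ± 16.5 CPM and highest in wild type HSP990 mice at 489 ± 47.9 CPM (SD of 2 mice). Both wild type mice given HSP990 had about the same high level, and no other library of the series reached it. The non-coding gene BC042782 overlaps Jun on the opposite strand, and how reads were assigned between them is not given in the sources used here.

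Jun was the only member called in any of the 18 comparisons. After HSP990 in wild type mice it rose by a log2 fold change of 1.29 (SE 0.29, edgeR adjusted p = 0.033), beside 1.85% of the 13754 genes that were called in that comparison. The call was lost when any of the 4 mice was left out, with log2 fold changes of 1.14 to 1.45 and edgeR adjusted p of 0.084 to 0.38, the highest without vehicle replicate 2. The change after HSP990 in R6/2 mice was 0.64 (SE 0.29, edgeR adjusted p = 0.49), with both treated mice above both vehicle mice, and in Hsf1 knockout mice it was 0.084 (SE 0.29, edgeR adjusted p = 0.95), with overlapping groups. The difference between Hsf1 knockout and wild type mice in this response was -1.21 (SE 0.41, edgeR adjusted p = 0.45) and that between R6/2 and wild type mice -0.65 (SE 0.41, edgeR adjusted p = 0.8), so neither was shown. Markers of other cell types moved in the same wild type comparison. All 8 fibroblast markers were higher after HSP990 (summed 1746 to 1766 CPM against 1025 to 1045 with vehicle), as were 9 of 10 leukocyte markers (63.2 to 87.2 against 39.2 to 40.7 CPM) and 7 of 8 endothelial markers (589 to 675 against 424 to 492 CPM). Their part in the Jun difference was not tested.

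After HS, Jun was higher in both treated wild type mice than in either control (log2 fold change 0.59, SE 0.29, edgeR adjusted p = 0.46) and likewise in both Hsf1 knockout mice (log2 fold change 1.20, SE 0.29, edgeR adjusted p = 0.14). The R6/2 groups overlapped at 0.014 (SE 0.29, edgeR adjusted p = 1). The wild type value ranged from 0.21 to 1.09 with a mouse left out, and that of the Hsf1 knockout mice was 0.66 without HS replicate 1, the mouse at 403 CPM. None of these passed the test in edgeR, and DESeq2 gave an adjusted p of 0.009 for the Hsf1 knockout mice. Without replicate 2 of the Hsf1 knockout HS group, which leaves that mouse alone in its group, edgeR called Jun (log2 fold change 1.59, adjusted p = 0.043).

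Junb (gene identifier 16477, chromosome 8 of mm9, 87500811 to 87502617), the AP-1 subunit that often dampens JUN, had a count of 0 in each of the 24 libraries, although it is listed in the table. A 0 in this table does not tell whether a gene was transcribed. Gapdh, which every cell uses, also had a total count of 0, as did 14 of 72 genes for cytosolic ribosomal proteins and 2855 genes in all. No near-identical copy of the Junb transcript was found in the genome.

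Atf3 (gene identifier 11910, chromosome 1 of mm9, 192994175 to 193007219) encodes a stress-induced factor that is reached through the integrated stress response as well as MAPK signalling. It varied most of all members, with 7.33 to 533 CPM, a 72.8-fold range. Wild type mice had 17.3 and 59.3 CPM in the control mice, 105 and 71.3 after HS, 82.5 and 14.3 with vehicle and 148 and 189.7 after HSP990. R6/2 mice had 177 and 23.9 CPM in the control mice, 20.2 and 23.9 after HS, 135 and 34.3 with vehicle and 16.1 and 140.4 after HSP990, and Hsf1 knockout mice had 19.7 and 7.33 CPM in the control mice, 533 and 32.1 after HS, 11.1 and 10.5 with vehicle and 58.0 and 219 after HSP990. Both wild type mice were above both of their controls after HS and again after HSP990, and so were both Hsf1 knockout mice after each treatment, while in R6/2 mice the groups overlapped. In Hsf1 knockout mice the log2 fold change was 4.38 (SE 1.37, edgeR adjusted p = 0.25) after HS and 3.68 (SE 1.34, edgeR adjusted p = 0.39) after HSP990. The first fell to 1.25 without HS replicate 1, the mouse at 533 CPM, and the second to 2.43 without HSP990 replicate 2. The R6/2 mice had -2.19 (SE 1.24, edgeR adjusted p = 0.68) after HS, where 1 of the 2 control mice had 177 CPM and the other 23.9, and without the first of these the value was -0.11. By group mean, Atf3 was lowest in Hsf1 knockout vehicle mice at 10.8 ± 0.46 CPM and highest in Hsf1 knockout HS mice at 283 ± 354 CPM (SD of 2 mice). None of these values was called by edgeR, and DESeq2 gave an adjusted p of 0.045 for HS in Hsf1 knockout mice.

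Egr1 (gene identifier 13653, chromosome 18 of mm9, 35020861 to 35024638), a zinc finger factor that follows SRF activity, had 5.62 and 22.9 CPM in the control mice, 13.2 and 13.6 after HS, 17.3 and 12.5 with vehicle and 21.0 and 52.2 after HSP990 in wild type mice. R6/2 mice had 9.71 and 8.69 CPM in the control mice, 17.8 and 5.89 after HS, 18 and 7.71 with vehicle and 21.9 and 28.7 after HSP990, and Hsf1 knockout mice had 11.2 and 5.96 CPM in the control mice, 276 and 11.2 after HS, 18.6 and 9.09 with vehicle and 6.84 and 24.1 after HSP990. Replicate 1 of the Hsf1 knockout HS group, at 276 CPM, stood alone, and the next highest library in the series held 52.2 CPM. The 2 mice of that group were 24.7-fold apart. The fitted HS change in Hsf1 knockout mice was 4.06 (SE 1.08, edgeR adjusted p = 0.18), and it rested on that mouse, since it was 0.37 without replicate 1. It was called by edgeR when replicate 2 was left out, which leaves replicate 1 alone in its group (5.00, adjusted p = 0.032), and by DESeq2 on all libraries (adjusted p = 0.018). After HSP990 both wild type mice and both R6/2 mice were above their vehicle mice, and in Hsf1 knockout mice the groups overlapped. The protein-coding gene Gm17507 overlaps Egr1 on the opposite strand.

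Egr2 (gene identifier 13654, chromosome 10 of mm9, 66998223 to 67004936), the relative of Egr1 known from Schwann cells and T cells, was low, with 0.764 and 1.94 CPM in the control mice, 4.66 and 3.74 after HS, 2.11 and 1.01 with vehicle and 1.85 and 2.56 after HSP990 in wild type mice. R6/2 mice had 2.58 and 2.10 CPM in the control mice, 2.91 and 2.84 after HS, 2.51 and 3.25 with vehicle and 1.47 and 2.29 after HSP990, and Hsf1 knockout mice had 2.07 and 2.22 CPM in the control mice, 2.02 and 3.18 after HS, 2.73 and 0.955 with vehicle and 1.22 and 2.58 after HSP990. Wild type mice after HS had the 2 highest values of the series. The change after HS was 1.62 (SE 0.51, edgeR adjusted p = 0.14) in wild type mice, which DESeq2 called (adjusted p = 0.041) and which ranged from 1.11 to 2.45 with a mouse left out. The difference of this change in R6/2 mice from that in wild type mice was -1.32 (SE 0.70, edgeR adjusted p = 0.99). By group mean, Egr2 was lowest in wild type control mice at 1.35 ± 0.832 CPM and highest in wild type HS mice at 4.2 ± 0.649 CPM (SD of 2 mice).

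Ier2 (gene identifier 15936, chromosome 8 of mm9, 87185230 to 87186751) and Ier3 (gene identifier 15937, chromosome 17 of mm9, 35958629 to 35959868) encode small proteins of the early growth factor response, and IER3 is known to restrain cell death. They had the narrowest ranges of the members over the 24 libraries. Ier2 was at 8.10 and 9.81 CPM in the control mice, 9.85 and 12.7 after HS, 9.93 and 9.62 with vehicle and 7.33 and 16.4 after HSP990 in wild type mice. In R6/2 mice it was at 8.21 and 8.15 CPM in the control mice, 13.9 and 11.6 after HS, 10.1 and 9.38 with vehicle and 11.7 and 11.1 after HSP990, and in Hsf1 knockout mice at 7.21 and 7.70 CPM in the control mice, 15.8 and 9.73 after HS, 10.3 and 8.76 with vehicle and 13.9 and 12.5 after HSP990. In each of the 3 genotypes both mice after HS had more Ier2 than both controls, with a log2 fold change of 0.64 (SE 0.28, edgeR adjusted p = 0.55) in R6/2 mice and 0.78 (SE 0.28, edgeR adjusted p = 0.38) in Hsf1 knockout mice, and none was called. The Hsf1 knockout value was 0.39 without HS replicate 1.

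Ier3 was at 8.86 and 7.32 CPM in the control mice, 12.7 and 9.03 after HS, 9.27 and 8.61 with vehicle and 7.93 and 7.20 after HSP990 in wild type mice. In R6/2 mice it was at 10.2 and 13.1 CPM in the control mice, 11.7 and 9.74 after HS, 11.2 and 9.38 with vehicle and 9.79 and 15.4 after HSP990, and in Hsf1 knockout mice at 7.64 and 8.27 CPM in the control mice, 8.33 and 9.69 after HS, 8.47 and 12.8 with vehicle and 13.3 and 13.9 after HSP990. Over the 24 libraries it stayed within 7.20 to 15.4 CPM. Both wild type mice were above their controls after HS (log2 fold change 0.43, SE 0.24, edgeR adjusted p = 0.55), and both were below their vehicle mice after HSP990.

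Myc (gene identifier 17869, chromosome 15 of mm9, 61816946 to 61821929), the growth-promoting factor that pairs with MAX, was at 5.08 and 5.82 CPM in the control mice, 12.9 and 13.8 after HS, 10.4 and 15.2 with vehicle and 9.88 and 12.6 after HSP990 in wild type mice. R6/2 mice had 12.5 and 6.99 CPM in the control mice, 14.4 and 7.50 after HS, 8.52 and 11.8 with vehicle and 9.07 and 6.30 after HSP990, and Hsf1 knockout mice had 27.0 and 15.0 CPM in the control mice, 28.8 and 12.8 after HS, 16.3 and 15.9 with vehicle and 45.3 and 44.4 after HSP990. The 2 wild type control mice were the lowest of all 24, and the 2 Hsf1 knockout mice given HSP990 were the highest and close to each other. After HS the log2 fold change was 1.29 (SE 0.40, edgeR adjusted p = 0.13) in wild type mice, with both treated mice above both controls. It was called by DESeq2 (adjusted p = 0.023) and by edgeR on only the 4 libraries compared (adjusted p = 0.0052). After HSP990 it was 1.48 (SE 0.39, edgeR adjusted p = 0.18) in Hsf1 knockout mice, which DESeq2 called (adjusted p = 0.015), and the difference from the wild type response was 1.67 (SE 0.55, edgeR adjusted p = 0.42). In untreated mice, the mean of the control and vehicle groups was higher in Hsf1 knockout than in wild type mice by a log2 difference of 1.14 (SE 0.28, edgeR adjusted p = 0.065). This difference had an adjusted p of 0.046 with only the groups compared, of 0.05 without the filter, just under the threshold, and of 0.0027 in DESeq2. It was uneven between the 2 kinds of untreated mice. By group mean, Myc was at 21.0 CPM in Hsf1 knockout against 5.45 in wild type control mice, but at 16.1 against 12.8 CPM in vehicle mice. The Hsf1 knockout mice were also 2 to 4 weeks younger.

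**Figure D2:**
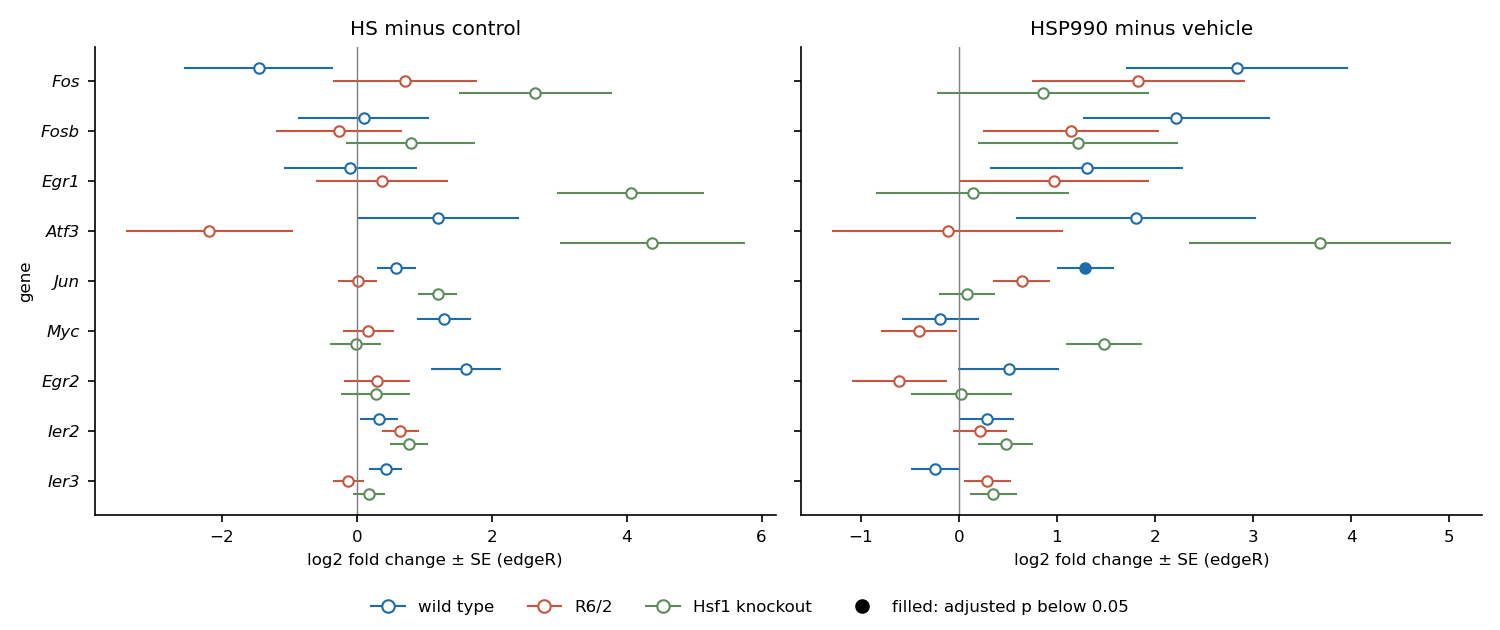
Log2 fold change of the 9 genes after HS (left) and after HSP990 (right) in each genotype, with the standard error from edgeR as bars; a filled symbol has an adjusted p below 0.05. The filled symbol is Jun after HSP990 in wild type mice at 1.29, and the bars of Fos, Egr1 and Atf3 are several times as long as those of Jun, Ier2 and Ier3.

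How far the 2 mice of a group lay apart separated the members into a variable and a steady set. The gap between the mice was taken as the difference of log2(CPM + 0.5). Atf3 mice were more than 2-fold apart in 8 of 12 groups and Fos mice in 6. Among the 11119 genes with a mean of at least 1 CPM, the median gap of Atf3 stood at percentile 99.9, those of Fos and Egr1 at percentile 99.5 and that of Fosb at percentile 99.1. Myc followed at percentile 94.3, Egr2 at 93, Ier3 at 70.4, Jun at 67.5 and Ier2 at 51.2, close to the middle of all genes. Fos also had a dispersion in edgeR at percentile 99.4. Counting error is part of the gap of low genes such as Fosb and Egr2.

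**Figure D3:**
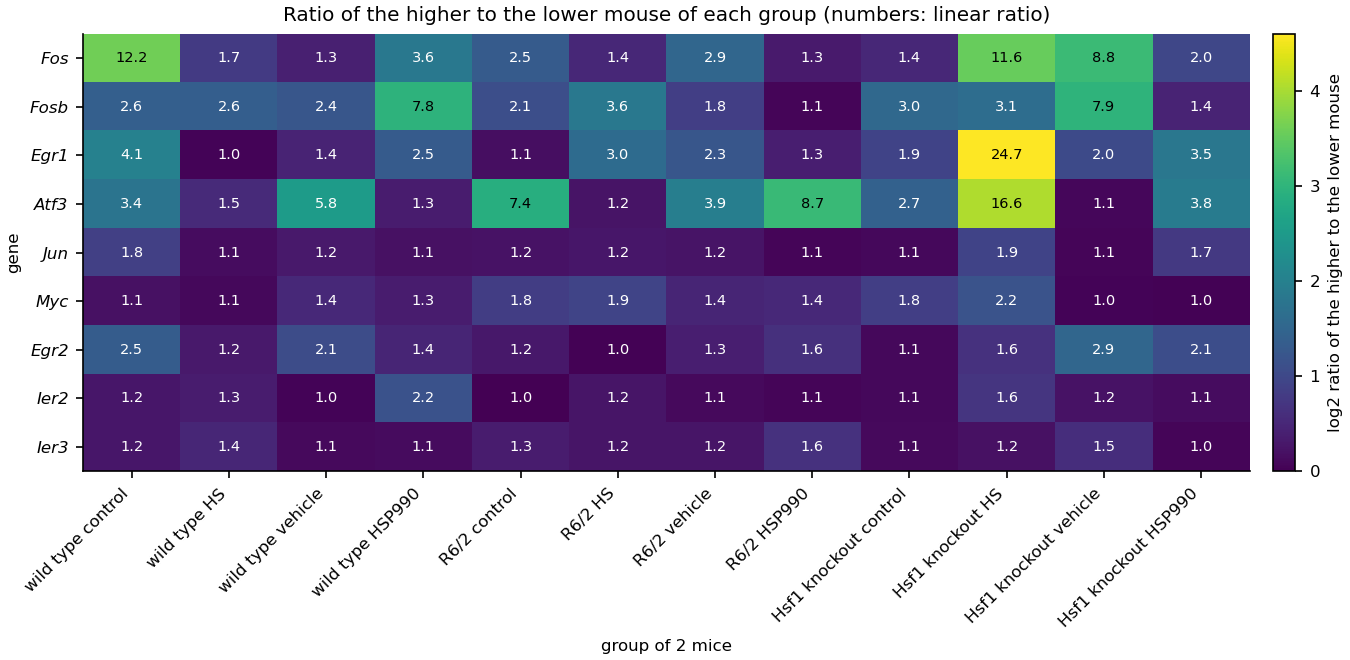
Ratio of the higher to the lower mouse of each group for the 9 genes; the colour is the log2 ratio and the number in each cell the linear ratio of CPM. Egr1, Atf3 and Fos reach 24.7, 16.6 and 11.6 in the Hsf1 knockout HS group, and the rows of Jun, Ier2 and Ier3 stay dark, with ratios of at most 1.89, 2.24 and 1.58.

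The variable genes tended to be high in the same mouse. Fosb was higher in the mouse with more Fos in 11 of the 12 groups, and Egr1 was too. Of the 11119 genes, 0.441% reached at least 11 groups. Jun and Atf3 followed the mouse with more Fos in 9 groups (8.3% of genes reached at least 9), Ier2 in 8 (20.4%), Egr2 and Myc in 7 (38.8%) and Ier3 in 6 (60%). The groups share libraries between genes, so these counts are a description. In the Hsf1 knockout HS group 5 of the 9 members were more than 2-fold apart, although only 1.88% of all genes were. In the wild type HS group none of the 9 members was, with 1.85% of genes. In the Hsf1 knockout HSP990 group, the group in which the largest share of all genes stood apart (4.86%), 2 of the 9 members did. These counts use the gap with 0.5 CPM added, which draws low values together. By plain CPM, Fosb was 2.58-fold apart in the wild type HS group and Egr2 2.13-fold in the Hsf1 knockout HSP990 group.

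**Figure D4:**
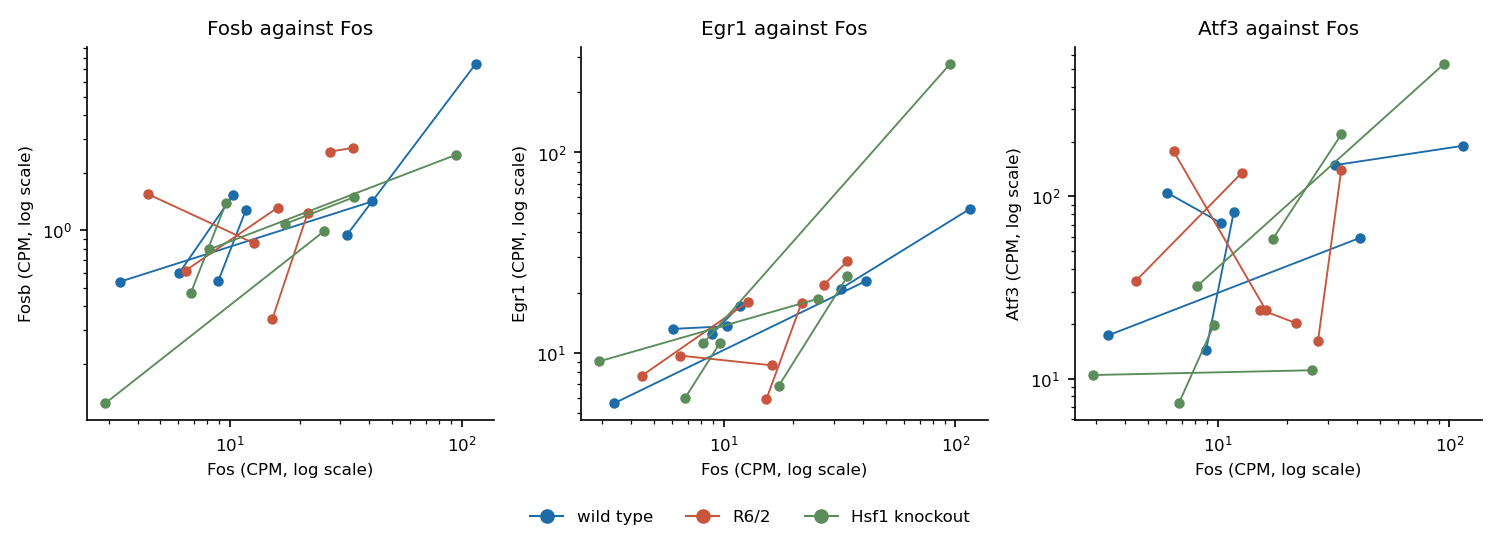
Level of Fosb, Egr1 and Atf3 against that of Fos, both in CPM on log axes; each point is a mouse and a line joins the 2 mice of a group. In 11 of 12 groups the mouse with more Fos also had more Fosb and more Egr1, so those lines rise, and the same held for Atf3 in 9 groups.

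Replicate 1 of the Hsf1 knockout HS group was the higher of its pair for Fos, Fosb, Jun, Egr1, Ier2, Atf3 and Myc, and the lower for Egr2 and Ier3. Among 50 related early genes, with examples chosen after their values were seen, Nr4a1 was 1.13-fold and Jund 1.01-fold as high in replicate 1 as in replicate 2, Btg2 2.72-fold, Trib1 2.6-fold and Sgk1 0.675-fold. Most of the 50 were at least as high in replicate 1 as in replicate 2, and a minority were lower. The leukocyte markers of this pair summed to 61.6 to 65.2 CPM and the red blood cell markers to 17.1 to 80.5 CPM. What set this mouse apart was not tested.

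After HS in wild type mice 7 of 9 had a positive fold change, with a median of 0.427 against -0.014 for all genes. In 6 of the 9 both treated mice were above both controls and in 0 of the 9 both were below, beside 23.1% and 24.6% of all genes. No member was called, beside 2.06% of genes, and 2 had an unadjusted p below 0.05 (Egr2 and Myc), beside 11.8% of genes. In R6/2 mice the median was 0.172, both mice were higher for 2 members (15.1% of genes) and lower for 0 (14.5%), and 0 were called by edgeR (0.0436% of genes) or by DESeq2, with 1 at an unadjusted p below 0.05 (8.12% of genes). In Hsf1 knockout mice the median was 0.797, both mice were higher for 4 members (20.8% of genes) and lower for 0 (21.6%), and 0 were called by edgeR (0.00727% of genes, which is 1 gene) against 3 by DESeq2, which called 161 genes in all. There 5 members had an unadjusted p below 0.05, namely Jun, Egr1, Atf3, Ier2 and Fos, beside 8.8% of genes, and the values of all 5 were smaller without HS replicate 1.

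After HSP990 the median log2 fold change of the members was 1.29 in wild type mice, 0.292 in R6/2 mice and 0.479 in Hsf1 knockout mice, where all 9 members were positive. Medians over all genes were -0.0011, 0.011 and 0.0099. Both treated mice were higher than both vehicle mice for 4 members in wild type mice (24.3% of genes), 5 in R6/2 mice (21.2%) and 5 in Hsf1 knockout mice (18.7%). Both were lower for 1 in wild type mice (24.7%), 1 in R6/2 mice (17.9%) and 0 in Hsf1 knockout mice (19.4%). Among R6/2 mice 0 members were called by edgeR (1.43% of genes) or by DESeq2, and in Hsf1 knockout mice 0 by edgeR (0.218% of genes) and 1, Myc, by DESeq2. Members with an unadjusted p below 0.05 numbered 3, 1 and 2, beside 13.2%, 9.5% and 9.48% of all genes.

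No member passed the test of a difference between genotypes in its response. The HS change in Hsf1 knockout mice against wild type mice was 4.16 (SE 1.43, edgeR adjusted p = 1) for Egr1, 4.09 (SE 1.58, edgeR adjusted p = 1) for Fos and -1.30 (SE 0.55, edgeR adjusted p = 1) for Myc, as differences of log2 fold changes. Without Hsf1 knockout HS replicate 1 the value of Egr1 was 0.47, and without wild type control replicate 2 that of Fos was 1.37, while that of Myc ranged from -2.01 to -0.82 with a mouse left out. Of all genes 0.16% were called in that comparison and 0.422% in that of the HSP990 changes of the same genotypes. Between R6/2 and wild type mice 0.0727% of genes were called for HS and 0% for HSP990. The widest member difference for HS was -3.39 (SE 1.73, edgeR adjusted p = 0.99) for Atf3, which was -1.31 without R6/2 control replicate 1, and 0 members had an unadjusted p below 0.05 in either. DESeq2 called 0 members in these 4 comparisons.

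The 2 treatments were also compared with each other within a genotype. In wild type mice the HS change minus the HSP990 change was -4.29 (SE 1.58, edgeR adjusted p = 0.19) for Fos and 1.48 (SE 0.56, edgeR adjusted p = 0.21) for Myc, beside 2.38% of genes called. The value of Fos was -1.56 without control replicate 2, and Myc was called by edgeR on only the libraries compared (adjusted p = 0.031). In Hsf1 knockout mice it was 3.92 (SE 1.43, edgeR adjusted p = 0.32) for Egr1, 1.11 (SE 0.41, edgeR adjusted p = 0.32) for Jun and -1.5 (SE 0.54, edgeR adjusted p = 0.32) for Myc, beside 0.145% of genes called. Without HS replicate 1 the values of Egr1 and Jun fell to 0.23 and 0.58. In R6/2 mice 1.63% of genes were called and no member had an unadjusted p below 0.05. The 2 treatments have controls with different handling, and in Hsf1 knockout mice the 2 pairs of groups also differed in age (10 weeks for HS and its control, 8 weeks for HSP990 and vehicle).

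Without treatment, taking the control and vehicle groups together, R6/2 and wild type mice differed in 30.5% of all genes but in none of the 9 members by edgeR. Of the 50 other immediate early genes described below, 23 were called in this comparison, some higher and some lower in R6/2 mice. So the absence of calls among the members does not extend to early genes in general. Egr2 was higher in R6/2 mice by 0.83 (SE 0.36, edgeR adjusted p = 0.092), Ier3 by 0.37 (SE 0.17, edgeR adjusted p = 0.11) and Jun lower at -0.38 (SE 0.20, edgeR adjusted p = 0.17), all as log2 differences. Ier2 was at -0.067 (SE 0.20, edgeR adjusted p = 0.83). These values depended on scaling. With library size only, the median of all genes moved from 0.051 to 0.66 and 4 members were called as higher (Egr2, Ier2, Ier3 and Myc), so Ier2 turned to 0.54 and Jun to 0.23, still below that median. Jun was called when wild type control replicate 1 was left out (-0.57, adjusted p = 0.047) and Egr2 when replicate 2 was (1.25, adjusted p = 0.035). In bulk muscle, fewer cells of a type and less RNA per cell cannot be told apart, and in these R6/2 mice 9 of 10 skeletal muscle markers were called lower while satellite cell markers summed to 54.35 to 74.4 CPM against 43.35 to 54.3 in wild type mice. Between Hsf1 knockout and wild type mice 0.974% of genes and none of the members were called by edgeR, and Atf3 was at -1.83 (SE 0.89, edgeR adjusted p = 0.36) and Jun at -0.42 (SE 0.20, edgeR adjusted p = 0.36). Atf3 was at -0.96 without wild type vehicle replicate 1 and Jun at -0.16 without wild type control replicate 2.

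Control mice, with anaesthesia on the pad, were also compared with vehicle mice, which were gavaged. In wild type and R6/2 mice these groups were of the same age, but in Hsf1 knockout mice the control mice were 10 and the vehicle mice 8 weeks old, so handling and age cannot be told apart there. In wild type mice Myc was lower in both control mice than in both vehicle mice, -1.23 (SE 0.40, edgeR adjusted p = 0.19), and the other 8 members had adjusted p of 0.68 to 1, beside 0.24% of genes called. In R6/2 mice 0.0654% of genes and in Hsf1 knockout mice 0% of genes were called, with 0 members at an unadjusted p below 0.05 in either. edgeR and DESeq2 called 0 members in all 3 comparisons. The standard error of Fos was 1.09, 1.07 and 1.11 in the 3 genotypes, against 0.29 for Jun in wild type mice, so for Fos only a large difference could have been detected.

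A wider list of 53 other immediate early genes was followed beside the members. It was chosen, like the members, with earlier results of these data known, so its counts beside the shares of all genes are a description. Of the listed genes, 50 were tested. After HS in wild type mice 16 were called upwards and 0 downwards, beside 1.59% and 0.465% of all genes, with a median log2 fold change of 0.932. The leading ones were Cebpd, a stress-induced C/EBP factor, from 15.1 and 16.6 to 224 and 148 CPM, Gadd45g, a growth arrest gene, from 22.6 and 31.8 to 292 and 284 CPM, and Zfp36, which encodes an RNA-destabilising protein, from 13.2 and 19.1 to 157 and 176 CPM. Their log2 fold changes were 3.55 (SE 0.57, edgeR adjusted p = 0.0032), 3.40 (SE 0.60, edgeR adjusted p = 0.0061) and 3.36 (SE 0.57, edgeR adjusted p = 0.0047). Each of these calls was lost when either control mouse was left out, with edgeR adjusted p of 0.06 to 0.14, and the number called fell to 2 without control replicate 1. For R6/2 mice 0 were called after HS by edgeR and 4 by DESeq2 (127 of all genes), with a median of 0.665 and 22 at an unadjusted p below 0.05 (8.12% of all genes). In the same comparison in Hsf1 knockout mice 0 were called by edgeR and 10 by DESeq2 (161 of all genes), with a median of 0.776 and 23 at an unadjusted p below 0.05 (8.8% of all genes).

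After HSP990 in wild type mice 6 of the 50 rose and 2 fell, beside 1.45% and 0.407% of genes. Dusp5 and Dusp2, phosphatases of MAP kinases, went from 1.41 and 0.582 to 4.54 and 5.81 CPM and from 1.53 and 0.698 to 4.54 and 4.67 CPM, and Phlda1 from 4.84 and 4.69 to 24.9 and 21.3 CPM. Their log2 fold changes were 2.38 (SE 0.52, edgeR adjusted p = 0.025), 2.05 (SE 0.45, edgeR adjusted p = 0.027) and 2.28 (SE 0.33, edgeR adjusted p = 0.001). Phlda1 was called with each mouse left out, and the number of list genes called was 1 without vehicle replicate 2 or without HSP990 replicate 2. The call of Dusp5 was lost without vehicle replicate 2, HSP990 replicate 1 or HSP990 replicate 2 (edgeR adjusted p 0.38, 0.064 and 0.17), and that of Dusp2 without the same 3 mice (0.39, 0.09 and 0.14). Both calls were also lost with only the groups compared (0.072 and 0.084).

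After HSP990 in R6/2 mice 0 of the 50 rose and 8 fell, beside 0.473% and 0.96% of genes. Cebpd went from 67.4 and 131 to 10.3 and 8.30 CPM, the basic leucine zipper factor gene Maff from 8.03 and 22.7 to 2.14 and 3.29 CPM and the Krüppel-like factor gene Klf2 from 39.3 and 66.5 to 11.7 and 11 CPM. Their log2 fold changes were -3.41 (SE 0.57, edgeR adjusted p = 0.0047), -2.49 (SE 0.48, edgeR adjusted p = 0.014) and -2.22 (SE 0.37, edgeR adjusted p = 0.0042). Each of the 3 calls was lost without vehicle replicate 2 and without either HSP990 mouse (edgeR adjusted p 0.058 to 0.25), and with only the groups compared (0.067, 0.2 and 0.073), and 0 of the 8 were left without vehicle replicate 2 or HSP990 replicate 1. Among Hsf1 knockout mice 0 rose and 1 fell, beside 0.167% and 0.0509% of genes, and this was Klf2 with -2.56 (SE 0.38, edgeR adjusted p = 0.0048), a call lost without vehicle replicate 1 (edgeR adjusted p = 0.088) and with only the groups compared (0.49).

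**Figure D5:**
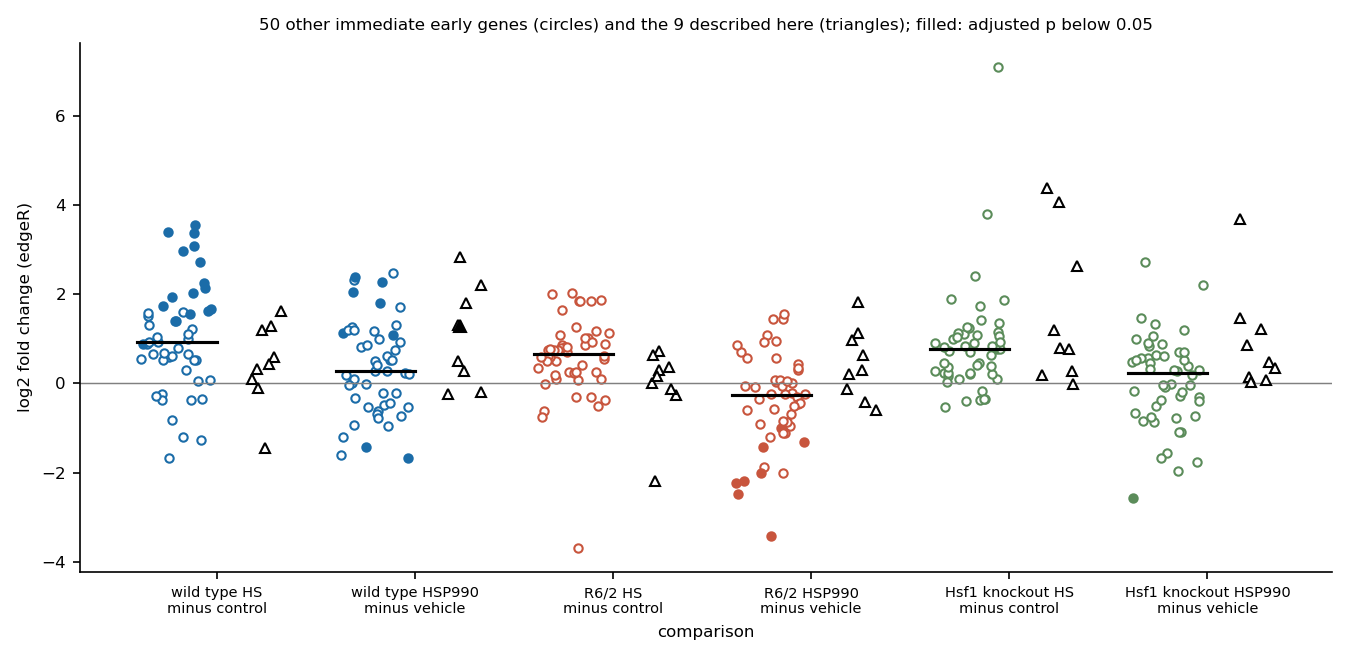
Log2 fold change of 50 other immediate early genes (circles, black line at their median) and of the 9 members (triangles) in the 6 treatment comparisons; filled symbols have an edgeR adjusted p below 0.05. In wild type mice after HS 16 circles are filled, all above 0, with a median of 0.932, and in R6/2 mice after HSP990 the 8 filled circles are all below 0. The genes were listed with earlier results of these data known.

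Genes for the pathways that feed the early response were looked at too. For SRF, CREB, MAPK kinases and related factors 21 genes were tested. Of these, 0 were called by edgeR in any of the 6 treatment comparisons, beside 0.00727% to 2.06% of all genes. With an unadjusted p below 0.05 there were 1 to 6 of the 21, depending on the comparison. The shares of all genes at that p are given above, but this range does not set each count beside its own share. The highest count, 6 of the 21, was a larger share than that of all genes in any of the 6 comparisons. In untreated R6/2 mice 7 of the 21 were called, 6 of them lower, beside the 30.5% of all genes. Of 17 partners of the AP-1, EGR and MYC factors, only Mycn was called after HS in wild type mice, beside 2.06% of all genes. Mycn, a relative of Myc, fell there from 1.84 and 3.69 to 0.336 and 0.291 CPM. Its log2 fold change was -3.13 (SE 0.58, edgeR adjusted p = 0.0082). That call was lost without control replicate 2 or without either HS mouse (edgeR adjusted p 0.11, 0.074 and 0.11). The wild type control group had the highest Mycn mean of the 12 groups, and the wild type vehicle mice had 0.497 and 0.504 CPM. Only Jdp2, which dimerises with JUN, was called among the partners after HSP990 in Hsf1 knockout mice, beside 0.218% of all genes. It rose from 4.19 and 6.14 to 16.0 and 20.6 CPM, 1.82 (SE 0.28, edgeR adjusted p = 0.0058) on the log2 scale. The call of Jdp2 was lost without vehicle replicate 1 (edgeR adjusted p = 0.13) and with only the groups compared (0.32).

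The genes whose pattern over the 24 libraries was most like that of a member were sought by Pearson correlation of log2(CPM + 0.5), as a description over libraries that share groups. For Atf3 they were Xirp1 (0.92), Dot1l (0.88) and Flnc (0.88). Xirp1 and Flnc encode actin-binding proteins of muscle that are known from sites of fibre damage, and Dot1l a histone methyltransferase. Without the 2 libraries farthest from the median of Atf3 the coefficients were 0.82 to 0.91. For Jun they were Lonrf3 (0.83), Ier5 (0.81) and Xirp1 (0.78), with 0.64 to 0.72 without 2 libraries. For Fos they were Dusp8 (0.70), Gas7 (0.69) and Lonrf3 (0.69), and these dropped to 0.48 to 0.54 without wild type HSP990 replicate 2 and Hsf1 knockout HS replicate 1. For Egr1 they were Dot1l (0.74), Mboat1 (0.72) and Lonrf3 (0.72), which dropped to 0.16 to 0.50 without the same 2 mice. For Myc they included Gpat3 (0.79) and Aldh18a1 (0.76), with 0.58 and 0.50 without the 2 Hsf1 knockout mice given HSP990. The corresponding rank correlations were 0.86 to 0.92 for Atf3, 0.68 to 0.70 for Jun, 0.53 to 0.64 for Fos, 0.32 to 0.61 for Egr1 and 0.61 and 0.64 for Gpat3 and Aldh18a1 with Myc.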

How the data were processed

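RNA of quadriceps femoris from 24 mice was sequenced by the authors as paired-end, strand-specific libraries of polyA RNA, mapped to mm9 with Bowtie and deposited as raw counts per gene, without normalization. The counting program and the annotation are not given in the sources used here. All 24 columns were used, and 18594 of 18669 gene identifiers were matched to a RefSeq symbol.

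The 13754 genes that reached 2 counts in 10 or more libraries were scaled with TMM and fitted as 12 group means with edgeR 4.0.16 (limma 3.58.1, R 4.3.3), using quasi-likelihood tests over 18 contrasts, Benjamini-Hochberg adjustment over all genes tested and a threshold of 0.05. The 2 mice of a group are taken as separate animals, and p-values weigh a difference against the spread between mice, pooled over the groups fitted. A pseudocount of 0.5 CPM was added for log2 values of single mice. The alternatives were DESeq2 1.42.0, scaling by library size only or by RLE, a filter by filterByExpr or none, a fit of only the groups compared, a replicate block and leaving out each mouse. The authors used DESeq2. The procedure was tested on simulated data for the wild type HS comparison, in which 200 of 13754 genes were changed. Of 182 genes called, 180 were changed ones, and 82% of genes changed by 1.5 and 98% of those changed by 3 on the log2 scale were recovered. The changed genes were drawn at random from those with a mean of at least 1 CPM. Fos, Fosb, Egr1 and Atf3 had dispersions at percentiles 99.1 to 99.5, so these shares do not describe them. Near-identical copies were searched for with minimap2 2.31-r1302, and figures were drawn with Python 3.11.15 and matplotlib 3.10.9.

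Named beside the members were up to 3 called genes per list and treatment comparison with the largest change, and the 3 genes most correlated with each of Fos, Egr1, Jun, Atf3 and Myc. Examples outside this rule are marked. One gene that this rule names is not reported here. The members and the lists were chosen with earlier results of these data known. Samples of 1 group differed by far more than counting error, and chi-square divided by its degrees of freedom was 19.4 to 111. Replicate numbers did not pair mice across groups, since same-numbered mice deviated together with a correlation above 0.1 in only 13 of 66 pairs of groups and below -0.1 in 19.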

Additional observations from a re-analysis of the deposited data

Results flagged for a closer look

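The response of Phlda1, an early gene on the wider list, to HSP990 differed between Hsf1 knockout and wild type mice by a test of the difference itself (-2.46 on the log2 scale, SE 0.46, edgeR adjusted p = 0.019). In wild type mice Phlda1 was at 4.84 and 4.69 CPM with vehicle and at 24.9 and 21.3 CPM after HSP990. In Hsf1 knockout mice it was at 6.22 and 7.97 CPM with vehicle and at 6.97 and 5.52 CPM after HSP990. The call was lost when any 1 of 6 of the 8 mice was left out (edgeR adjusted p 0.056 to 0.12, with log2 differences of -2.63 to -2.26) and held without wild type HSP990 replicate 2 or Hsf1 knockout vehicle replicate 1. The Hsf1 knockout mice in these groups were 8 weeks old and the wild type mice 12 weeks old, and age and genotype cannot be told apart. Zfp36l1, outside the naming rule, was the other gene of the wider list called in this comparison (-1.63, SE 0.34, edgeR adjusted p = 0.05, just under the threshold). That made 2 of the 50 listed genes, beside 0.422% of all genes. None of the 9 measured members met a test of this kind, and groups of 2 mice are too small to look for single outlying mice by rule.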

How the results depend on the processing

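The number of members called moved in few settings. It was 0 for HS in wild type mice, 1 (Myc) with only the groups compared and 2 (Egr2 and Myc) with DESeq2. For HS in Hsf1 knockout mice it was 0, with 3 (Jun, Egr1 and Atf3) in DESeq2 and 0 to 2 with a mouse left out, and for HSP990 in those mice 0, with 1 (Myc) in DESeq2. For HSP990 in wild type mice it was 1 and became 0 whichever of the 4 mice was left out. For the difference of the 2 treatments in wild type mice it was 1 (Myc) with only the groups compared. For untreated R6/2 against wild type mice it was 4 with library size only and 0 to 1 with a mouse left out, and for untreated Hsf1 knockout against wild type mice 1 (Myc) without the filter, with only the groups compared and with DESeq2. Fold changes that turned in sign were small, rested on 1 mouse or depended on the scaling. Jun after HS in R6/2 mice was 0.014, but -0.10 with library size only and -0.13 to 0.14 with a mouse left out. Jun in untreated R6/2 mice became 0.23 and Ier2 0.54 with library size only, and Ier2 ranged from -0.13 to 0.0066 with a mouse left out. Fos after HS ranged from -0.017 to 3.52 in Hsf1 knockout mice and from -2.33 to 1.28 in wild type mice, and Jun after HSP990 in Hsf1 knockout mice from -0.35 to 0.43. Of the 50 other early genes, 16 were called for HS in wild type mice, with 27 in DESeq2 and 2 to 11 with a mouse left out, and 8 for HSP990 in R6/2 mice, with 0 with only the groups compared.

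Over all genes DESeq2 called more, 542 against 283 for HS in wild type mice, 127 against 6 in R6/2 mice and 161 against 1 in Hsf1 knockout mice. For HSP990 it called 542 against 255, 376 against 197 and 142 against 30. Library size only turned the split for HS in wild type mice from 219 higher of 283 to 161 higher of 316. A replicate block called 1 member for HSP990 in wild type mice, Jun, and changed no call of a member in any of the 18 comparisons, and since the numbers do not pair the mice it is not a design of the study. The causes of these changes were not tested. With 2 mice a group, the members that vary most between mice could be tested only for large changes.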

Other observations

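Some early genes on the wider list were lower after HSP990 in all 3 genotypes, a pattern noticed in the values and chosen after they were seen. Klf2 was at 4.19 and 7.09 CPM in wild type, 11.7 and 11 CPM in R6/2 and 7.15 and 4.99 CPM in Hsf1 knockout mice given HSP990, and no other library of the series was below 15.7 CPM. Its log2 fold change against vehicle was -1.67 in wild type, -2.22 in R6/2 and -2.56 in Hsf1 knockout mice, called by edgeR in each (adjusted p = 0.034, 0.0042 and 0.0048). With only the groups compared the call was lost in each genotype (edgeR adjusted p = 0.059, 0.073 and 0.49). It was also lost whichever of the 4 mice was left out in wild type mice (0.067 to 0.29), without vehicle replicate 2 or either HSP990 mouse in R6/2 mice (0.063 to 0.075) and without vehicle replicate 1 in Hsf1 knockout mice (0.088). Cebpd stood at 8.08 to 10.3 CPM in the 6 mice given HSP990 and at 11.2 CPM or more in the other 18, but was called in R6/2 mice only (edgeR adjusted p = 0.18 in wild type, 0.0047 in R6/2 and 0.29 in Hsf1 knockout mice), and a difference between the genotypes is not shown by that.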
